A study of Homo sapiens with 17 samples.

Results

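The mitochondrial ribosomal protein genes were taken from the count table as every gene whose symbol is MRPL or MRPS followed by a number and at most 1 letter. The pattern gave 76 of 23368 genes, 47 with an MRPL symbol and 29 with an MRPS symbol. They are called large and small subunit genes after the symbol alone, which need not give the place of each protein. MRPL57 is listed in the table under an older symbol, MRP63, and was described with the mitoribosomal proteins of other names. The cells were HEK293T, a human embryonic kidney cell line, whose polyadenylated transcripts were profiled by acRIP-seq, the sequencing of RNA recovered with an antibody to the modified base N4-acetylcytidine (ac4C). The genotypes compared were WT and siTDP43, a knockdown by siRNA of TARDBP, which encodes the RNA-binding protein TDP43. Each was sequenced before the pull-down (input), after the anti-ac4C pull-down (IP) and after a mock pull-down with immunoglobulin G (IgG). The 6 groups held 17 libraries, with 2 for WT IgG and 3 for every other group. The labels name no control siRNA for the WT cells, so the knockdown, the transfection and any batch of cells or libraries cannot be told apart. No label says that replicates came from separate cultures, so p-values measure the spread between these libraries, which may be technical.

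Mitochondria keep their own ribosome, the mitoribosome, which translates the few proteins encoded by mitochondrial DNA, all of them subunits of the oxidative phosphorylation complexes. Its rRNAs are mitochondrial, but every one of its proteins is encoded in the nucleus, translated in the cytosol and imported. Some of these proteins have a counterpart in the bacterial ribosome, and others were added during the evolution of mitochondria. ac4C is written on RNA by the acetyltransferase NAT10, and TDP43 is known for binding UG-rich stretches of RNA.

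Total counts per library ranged from 3013989 in siTDP43 IgG to 36583436 in WT input, so the IgG libraries of the knockdown carried the largest counting error. TARDBP, the targeted gene, had 150, 157 and 151 CPM in the WT input libraries and 98.7, 102 and 106 CPM in siTDP43 input (CPM, counts relative to library size with TMM scaling over all 17 libraries, the scale of every CPM given here). All knockdown inputs lay below all WT inputs, with a log2 ratio of -0.57 (SE 0.045, adjusted p 6.55e-13) and an exact two-sided permutation p of 0.1, the smallest that 3 libraries against 3 allow. Of 7 markers of HEK293T cells, VIM, KRT8, KRT18, CDH2 and NEFM were detected in every library, EYA1 was low or at 0, and PAX2 was at 5.05 to 8.20 CPM in WT IP and at or near 0 elsewhere. The summed CPM of these markers was 3412 to 4008 in WT IP, where NEFM made up most of it, 1182 to 1486 in the other WT libraries and 462.5 to 621.2 in siTDP43. A list of 8 markers of other cell types (leukocytes, liver, endothelium, fibroblasts and beta cells) summed to at most 15.3 CPM in any library.

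All 76 genes passed the filter on low counts in every fit, MRPS24 with the fewest counts. The 3 WT input libraries held 71, 94 and 95 counts of MRPS24, both WT IgG libraries held 0, which allows up to 3 counts in each, and its exons overlap a read-through transcript of the same strand. With under 100 counts on average it is not named among the largest differences, and its fitted ratios against WT IgG are no bounds. Exons of MRPS6 overlap SLC5A3 on the same strand, and those of 8 members overlap a gene on the other strand: MRPL20, MRPL9, MRPL43, MRPL49, MRPS7, MRPS12, MRPS25 and MRPS18C. Whether counting used strand is not given in the sources used here, so their counts can hold reads of the neighbour. MRPS18B is listed on chromosome 6 and on copies of that region, which left its length undefined. Relative to exon length, the highest levels in WT input were those of MRPL12 (425 RPKM in the group mean, CPM per kilobase of exon), MRPL37 (400), MRPL33 (366), MRPL21 (364) and MRPS34 (347). MRPS24 (3.57) and MRPL19 (10.9) were lowest.

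Together the 76 genes took 1.26 to 1.28% of all counts of WT input libraries. Their share was 0.851 to 0.884% for WT IP and 1.23 to 1.27% for WT IgG. After the knockdown it was 1.43 to 1.46% of the input, 1.47 to 1.51% of the IP and 1.58 to 1.61% of the IgG counts. The WT IP libraries therefore held the lowest share, below all other libraries, and every siTDP43 library held a higher share than every WT library. In bulk RNA, fewer cells with a transcript and less of it in each cell cannot be told apart.

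**Figure D1:**
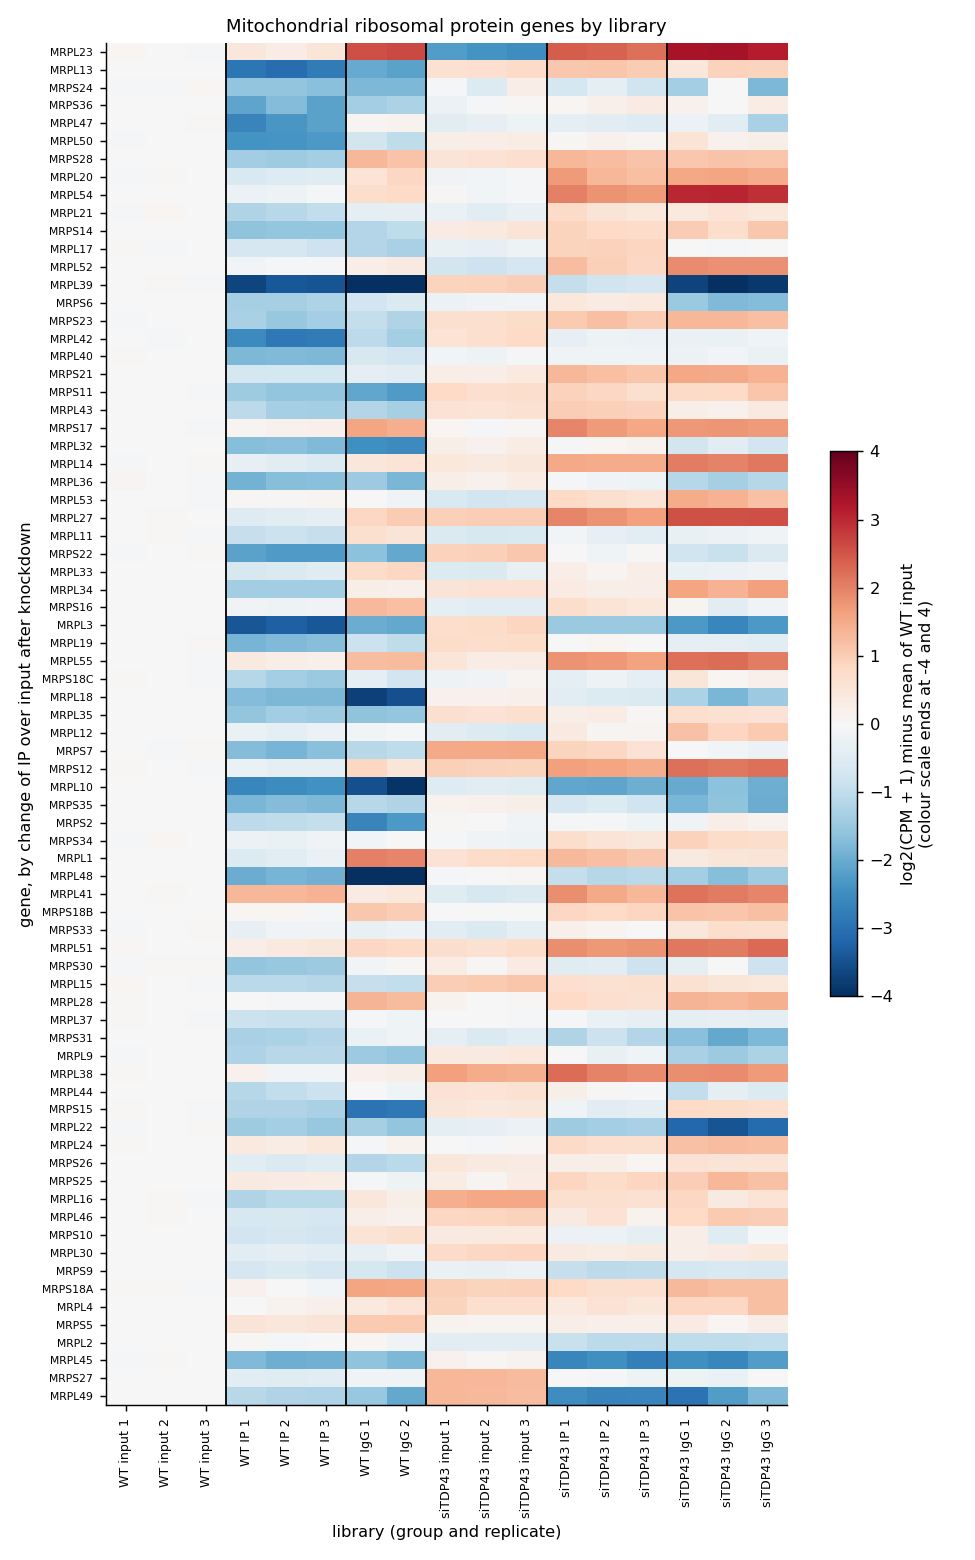
Each row is one mitochondrial ribosomal protein gene and each column one library. Colour gives log2(CPM + 1) minus the mean of the WT input libraries, and genes are ordered by the change of IP over input after the knockdown, so that MRPL23 stands at the top and MRPL49 at the bottom. Blue prevails in the 3 WT IP columns and red is more frequent in the siTDP43 IP and IgG columns.

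The inputs asked whether the mRNAs themselves differed in abundance after the knockdown. Of the 76 genes, 44 were higher and 20 lower in siTDP43 input (57.9% and 26.3%, adjusted p under 0.05), against 38.6% higher and 40.6% lower among the 14036 genes tested. The median log2 ratio was 0.24 for the members and -0.05 for all genes tested. Large subunit genes were higher in 27 and lower in 14 of 47, and small subunit genes were higher in 17 and lower in 6 of 29. Members with a bacterial counterpart gave 16 higher and 10 lower of 29 in the large subunit and 10 and 3 of 18 in the small subunit, and members particular to mitochondria 11 and 4 of 18 and 7 and 3 of 11. The medians of the 4 classes lay between 0.22 and 0.32.

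The members with the largest rise were MRPS7, MRPL38, MRPL16, MRPS27 and MRPL49. MRPS7, which sits in the head of the small subunit (hg19 chromosome 17, 73257749 to 73262457), had 134, 131 and 138 CPM in WT input and 388, 386 and 396 CPM in siTDP43 input, a log2 ratio of 1.55 (SE 0.040, adjusted p 4.33e-25). MRPL38, a large subunit protein particular to mitochondria (chromosome 17, 73894724 to 73901181), rose from 86.3, 83.5 and 82.9 CPM to 263, 237 and 230 CPM. Its log2 ratio was 1.54 (SE 0.049, adjusted p 5.99e-23), or 2.47 with a GC trend removed. MRPL16, which lies near the tRNA sites of the large subunit (chromosome 11, 59573608 to 59578345), rose from 88.5, 90.4 and 84.1 CPM to 240, 257 and 256 CPM (log2 ratio 1.52, SE 0.045, adjusted p 1.01e-23). The groups did not overlap for any of the 3, which the rule for naming genes required. MRPS27, a pentatricopeptide repeat protein of the small subunit, and MRPL49 had log2 ratios of 1.32 and 1.30.

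MRPL23 had the largest fall. This protein lines the exit of the peptide tunnel, and its gene lies on chromosome 11 (1968502 to 1977839). It had 78.3, 75.1 and 71.4 CPM in WT input and 14.95, 13.6 and 12.7 CPM in siTDP43 input, a log2 ratio of -2.44 (SE 0.072, adjusted p 1.06e-23), which became -1.28 with a GC trend removed from each library and -1.94 with a length trend removed. The next falls, of MRPL52, MRPL53 and the stalk-base protein MRPL11, were -0.75, -0.68 and -0.61. MRPL41 had -0.56, a value that turned to 0.71 and to 0.0051 under the same removals.

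Promoters of the members were read from RefSeq (GRCh38.p14, 250 bases before to 50 after the start), which listed 67 of the 76. The 7 letters CCGGAAG, the core of the sites that ETS factors prefer, were present on either strand in 28 of these 67 promoters (41.8%) and in 2913 of 27305 promoters of all genes (10.7%). GCATGCGC, the core of the NRF1 site, was present in 6 (8.96%) and in 894 (3.27%). The ETS letters stood in 14 of the 40 promoters of members that rose in the input and in 9 of the 16 of members that fell, so they occurred in members of both directions. The promoters of all genes include those of genes not tested here, and the members were not compared with promoters of expressed genes alone. A match describes the letters and not a bound site. The stretches of 30 bases around the match are shown for the 2 risen members MRPL38 and MRPL16 and the 2 fallen members MRPL52 and MRPL53, read 5′ to 3′ on the strand of the gene, with the matching letters or their reverse complement in capitals. They lie at chr17:75905074-75905103, chr11:59810766-59810795, chr14:22829871-22829900 and chr2:74472734-74472763, on the minus strand except for MRPL52.
MRPL38: tccaacgggcaCTTCCGGagccgggcgtct
MRPL16: agtgaacacaaCTTCCGGccccactgagcg
MRPL52: ggccacgcctaCTTCCGGctaccccggcta
MRPL53: gcagccggcggCCGGAAGtctatcccgcag

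In WT cells the question was which transcripts the anti-ac4C antibody enriched. Over input, with a fold above 2 and adjusted p under 0.05, 1 of the 76 genes was higher and 38 were lower in IP, against 30.2% higher and 27.3% lower of the 14751 genes tested. The median log2 ratio was -1.003 for the members and 0.01 for all genes. The 38 lower genes were spread over both subunits (24 of 47 and 14 of 29). The gene that was higher was MRPL41, a large subunit protein particular to mitochondria (chromosome 9, 140446309 to 140447007). It rose from 158, 162 and 156 CPM in WT input to 397, 400 and 418 CPM in WT IP (log2 ratio 1.36, SE 0.050, adjusted p 8.08e-18), but its exons had the highest GC content of all members, 67.2%, and the ratio turned to -0.88 when a GC trend was removed.

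The largest falls over input in WT were those of MRPL39, MRPL3, MRPL13, MRPL42 and MRPL10. MRPL39, a large subunit protein particular to mitochondria (chromosome 21, 26957968 to 26979801), had 128, 130 and 123 CPM in WT input and 8.97, 11.1 and 10.7 CPM in WT IP (log2 ratio -3.62, SE 0.088, adjusted p 2.9e-21). MRPL3, near the peptidyl transferase centre, had 372, 370 and 372 CPM in input and 33.9, 37.99 and 34.3 CPM in IP, a log2 ratio of -3.38. Neither gene's groups overlapped, which the rule for naming genes required, and the group means of MRPL39 were 127 and 10.3 CPM. MRPL13, MRPL42 and MRPL10, the last at the base of the stalk that binds translation factors, had -2.94, -2.75 and -2.56.

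Over WT IgG, 5 members were higher and 24 lower in WT IP, against 35.2% and 17.8% of all genes, with a median log2 ratio of -0.55 for the members and 0.29 for all genes. The count of lower members rose to 39 when a GC trend was removed from each library and to 40 when a length trend was removed. MRPL48, MRPL18, MRPS15, MRPS2 and MRPL10 were the 5 that were higher, and MRPS2 and MRPL10 lost the call with a GC trend removed (0.50 each) or a length trend removed (0.99 and 0.65). MRPL48 had 36.5, 39.5 and 37.8 CPM in WT IP and 4.85 and 6.38 CPM in WT IgG (log2 ratio 2.74, SE 0.124, adjusted p 1.84e-15), but 149, 143 and 145 CPM in WT input. All 5 were lower in WT IgG than in the input, with log2 ratios of -4.67 for MRPL48, -3.67 for MRPL18, which binds 5S rRNA in bacteria, -2.94 for MRPS15, -3.78 for MRPL10 and -2.49 for MRPS2 (20.2 and 26.1 CPM against 133, 131 and 133 CPM). The largest falls over IgG were those of MRPS28 (-2.68), MRPL47 (-2.56), MRPL1 (-2.44), MRPL23 (-2.22) and MRPL34 (-1.65).

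The control pull-down was compared with the input in the same way. In WT IgG against WT input 10 members were higher and 27 lower (13.2% and 35.5%), against 24.4% and 36.6% of all genes. The share of lower members thus lay near that of all genes. The medians were -0.19 for the members and -0.39 for all genes. The member median turned to 0.13 with a GC trend removed and to 0.52 with a length trend removed, while that of all genes became 0.02 in both. MRPL23 led the rises, from 78.3, 75.1 and 71.4 CPM in input to 455 and 474 CPM in IgG (log2 ratio 2.66, SE 0.064, adjusted p 6.05e-21), followed by MRPL1 of the L1 stalk (2.04), MRPS18A (1.59), MRPS17 (1.56) and MRPL28 (1.34). With a length trend removed these counts became 26 higher and 13 lower.

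**Figure D2:**
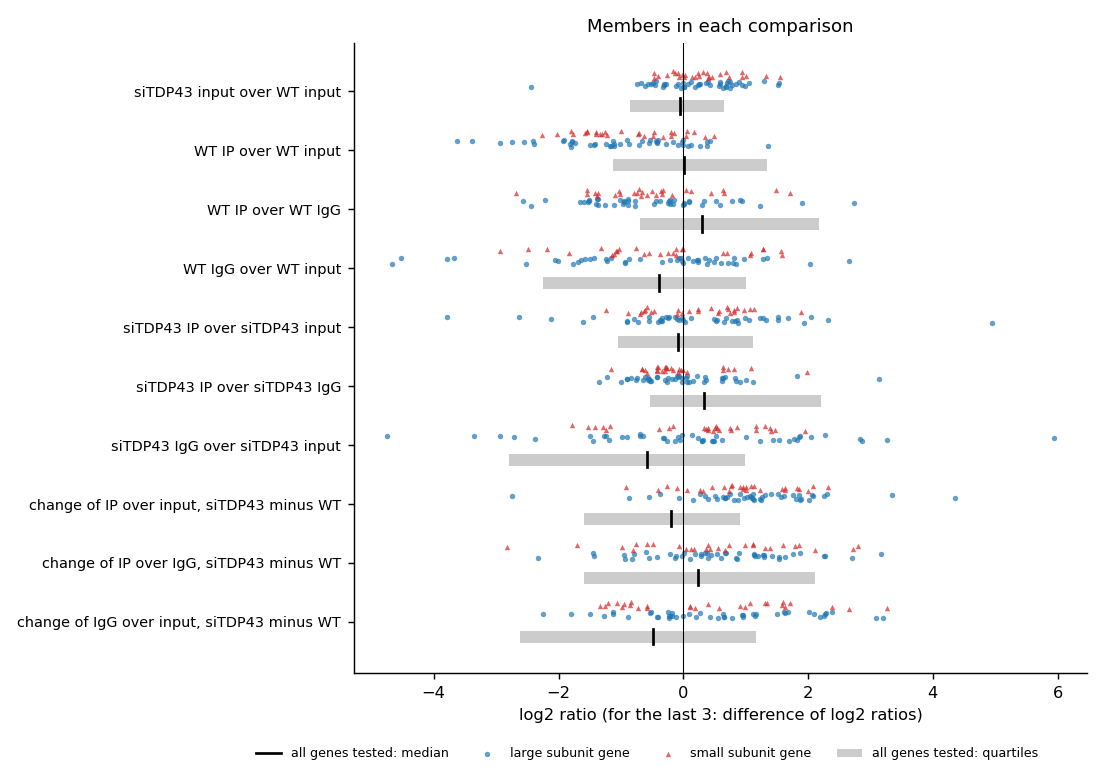
Each point is one member, with large subunit genes as blue circles and small subunit genes as red triangles, placed by its log2 ratio in the comparison named at the left. The grey bar and black line give the quartiles and the median of all genes tested, and MRPS24 is left out because both WT IgG libraries held 0 counts. In WT IP over WT input the member median of -1.003 lies below the median of all genes, and in the change of IP over input the member median of 1.05 lies above it.

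In siTDP43 cells the members were on both sides of the input. Over siTDP43 input, 14 were higher and 6 lower in siTDP43 IP, against 26.8% and 25.4% of the 12746 genes tested, with medians of 0.07 for the members and -0.09 for all genes. The member median turned to -0.27 with scaling by total count, with 8 higher and 13 lower, and to -0.20 with a length trend removed, with 4 higher and 12 lower. MRPL23 again had the largest value: 14.95, 13.6 and 12.7 CPM in siTDP43 input and 402, 388 and 351 CPM in siTDP43 IP, a log2 ratio of 4.94 (SE 0.084, adjusted p 3.84e-22), which became 2.83 with a GC trend removed and 3.90 with a length trend removed. MRPL41 (2.32, or -0.12 with a GC trend removed), MRPL54 (2.05), MRPL52 (1.93) and MRPS17 (1.89) followed. With a length trend removed MRPL41, MRPL54 and MRPS17 lost the call (0.97, 0.75 and 0.49).

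MRPL49 had the largest fall in siTDP43 IP. This large subunit protein particular to mitochondria (chromosome 11, 64889655 to 64894841) had 290, 280 and 267 CPM in siTDP43 input and 19.6, 17.1 and 17.4 CPM in siTDP43 IP (log2 ratio -3.79, SE 0.131, adjusted p 5.35e-17). MRPL45, which anchors the mitoribosome at the inner membrane, had -2.64, and MRPL3, MRPL39 and MRPL10 had -2.11, -1.61 and -1.44.

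Over siTDP43 IgG, 5 members were higher and 4 lower in siTDP43 IP, both shares below those of all genes (34.0% and 15.0%), and the medians were -0.15 for the members and 0.33 for all genes. The member median became 0.05 with scaling by total count, and with a GC trend removed 2 members were higher and 20 lower. MRPL39 was highest, with 64.7, 72.2 and 78.5 CPM in siTDP43 IP against 8.81, 6.48 and 7.83 CPM in siTDP43 IgG (log2 ratio 3.14, SE 0.163, adjusted p 1.08e-12), where the IgG libraries held 24, 16 and 22 counts. MRPS6 (1.99), MRPL22 (1.82), MRPL9 (1.12) and MRPS35 (1.09) were the others. With a GC trend removed MRPL22 (0.96), MRPL9 (0.66) and MRPS35 (0.27) lost the call, as did MRPL9 (0.85) and MRPS35 (0.59) with a length trend removed and MRPS35 without siTDP43 IgG replicate 3 (0.99). MRPL34 (-1.35), MRPL54 (-1.22), MRPS15 (-1.16) and MRPL23 (-1.002) were lower, and with scaling by total count MRPS15 (-0.95) and MRPL23 (-0.79) lost the call. The value of MRPL23 lay at the threshold and lost the call when any 1 of 3 libraries was left out, siTDP43 IP replicate 3 or siTDP43 IgG replicate 1 or 2, with -0.96 to -0.98.

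In siTDP43 IgG against siTDP43 input 22 members were higher and 16 lower (24.7% and 41.0% of all genes), with medians of 0.35 for the members and -0.58 for all genes. Scaling by total count moved the member median to -0.20 and the median of all genes to -1.13. MRPL23 rose to 742, 756 and 675 CPM in siTDP43 IgG, a log2 ratio of 5.94 over the input (SE 0.087, adjusted p 2.55e-23), and MRPL54, MRPL41, MRPL52 and MRPL53 rose by 3.27, 2.87, 2.84 and 2.28. MRPL23 became 4.02 with a GC trend removed, MRPL41 lost the call (0.60), and with a length trend removed MRPL53 lost it (0.99). MRPL39 (-4.75), MRPL49 (-3.36), MRPL3 (-2.94), MRPL22 (-2.71) and MRPL45 (-2.38) fell.

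A transcript was called ac4C(+) when its IP passed against both the input and IgG of its genotype. None of the 76 genes met this rule in WT, against 15.6% of all genes tested, and none in siTDP43, against 10.3%. The DESeq2 Wald test also gave 0 in both. Without the minimum fold, 3 members passed in WT (MRPL24, MRPS25 and MRPL41) and 7 in siTDP43 (MRPS16, MRPL43, MRPL17, MRPL33, MRPS6, MRPL1 and MRPL13), against 25.5% and 16.9% of all genes tested under the same rule, and an unadjusted p under 0.05 gave the same numbers of members. The size of these differences varied. MRPL24, a large subunit protein with a bacterial counterpart, had 156, 148 and 150 CPM in WT input. Its WT IP held 198, 186 and 201 CPM and its WT IgG 146 and 167 CPM. MRPL41 was nearer to the rule, with 397, 400 and 418 CPM in WT IP against 200 and 214 CPM in WT IgG. Its log2 ratio over WT input was 1.36, or -0.88 with a GC trend removed. MRPL17 had 303, 312 and 299 CPM in siTDP43 IP. Its siTDP43 input held 134, 130 and 142 CPM and its siTDP43 IgG 162, 159 and 162 CPM. With scaling by total count 1 member was ac4C(+) in WT, and 1 was without WT IgG replicate 2.

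**Figure D3:**
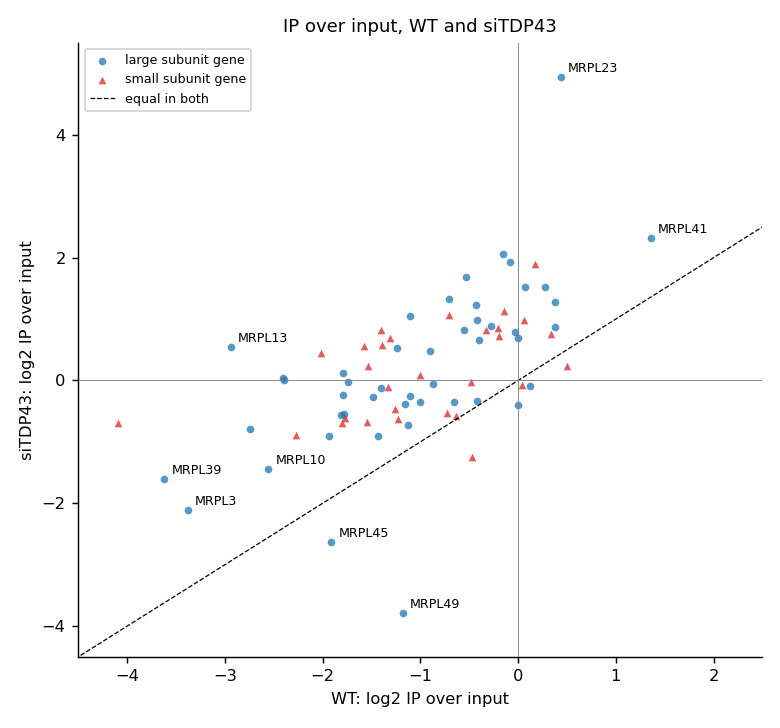
Each point is one member, placed by its log2 ratio of IP over input in WT (horizontal axis) and in siTDP43 (vertical axis), with large subunit genes as blue circles and small subunit genes as red triangles. The dashed line marks equal ratios, and most members lie above it, with MRPL23 (0.43 and 4.94) farthest above and MRPL49 (-1.18 and -3.79) farthest below.

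The difference between the genotypes was tested as an interaction over all 17 libraries. The ratio of IP to input was higher in siTDP43 than in WT for 65 of the 76 genes and lower for 7 (85.5% and 9.21%), against 31.5% higher and 36.3% lower of the 15165 genes tested. The median change of the log2 ratio was 1.05 for the members and -0.19 for all genes. Both subunits took part, with 41 of 47 large subunit and 24 of 29 small subunit genes higher. By class, 26 of 29 large and 14 of 18 small subunit genes with a bacterial counterpart were higher, and 15 of 18 and 10 of 11 of those particular to mitochondria. Scaling by total count left 57 higher and moved the medians to 0.75 for the members and -0.48 for all genes, and over all alternatives the count lay between 51 and 67. With a length trend removed the medians were 0.53 for the members and 0.08 for all genes, and 14 members were lower. This contrast uses the input libraries in which 44 members rose, so it is not independent of the change in the input.

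MRPL23 had the largest change over input, 4.36 (SE 0.106, adjusted p 2.4e-29, or 3.37 with a length trend removed), from a log2 ratio of 0.43 in WT to 4.94 in siTDP43. Its level in IP was 104, 93.1 and 105 CPM in WT and 402, 388 and 351 CPM in siTDP43, while its input fell. MRPL13, a large subunit protein with a bacterial counterpart, went from 29.1, 26.4 and 31.4 CPM in WT IP to 473, 485 and 452 CPM in siTDP43 IP, with 223, 227 and 221 CPM in WT input and 341, 355 and 380 CPM in siTDP43 input. Its change was 3.34 (SE 0.113, adjusted p 7.23e-25), and the IP groups were far apart while the inputs differed by less. The IgG level of MRPL13 rose too, from 54.7 and 50.2 CPM in WT to 309, 423 and 415 CPM in siTDP43. Its change over IgG was 1.16. MRPS36, which despite its symbol is known as a subunit of the alpha-ketoglutarate dehydrogenase complex, MRPL47 and MRPL50 changed by 2.32, 2.30 and 2.25. Over IgG the change of MRPS36 was 0.73.

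MRPL49 was the clearest exception, with a change over input of -2.75 (SE 0.156, adjusted p 6.22e-18). Its IP level fell from 52.5, 49.3 and 48.1 CPM in WT to 19.6, 17.1 and 17.4 CPM in siTDP43, while its input rose from 113, 115 and 114 CPM to 290, 280 and 267 CPM. The other 6 lower members were MRPS27 (-0.92), MRPL45 (-0.87), MRPL2 of the large subunit core (-0.55), MRPS5 (-0.40), MRPL4 (-0.37) and MRPS18A (-0.26). MRPS5 and MRPS18A turned to 0.033 and 0.25 with a GC trend removed, which also ended the call of MRPL2 (-0.075), and MRPS18A lost the call without WT input replicate 3 (-0.22), WT IP replicate 1 (-0.18) or siTDP43 IP replicate 2 (-0.23).

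**Figure D4:**
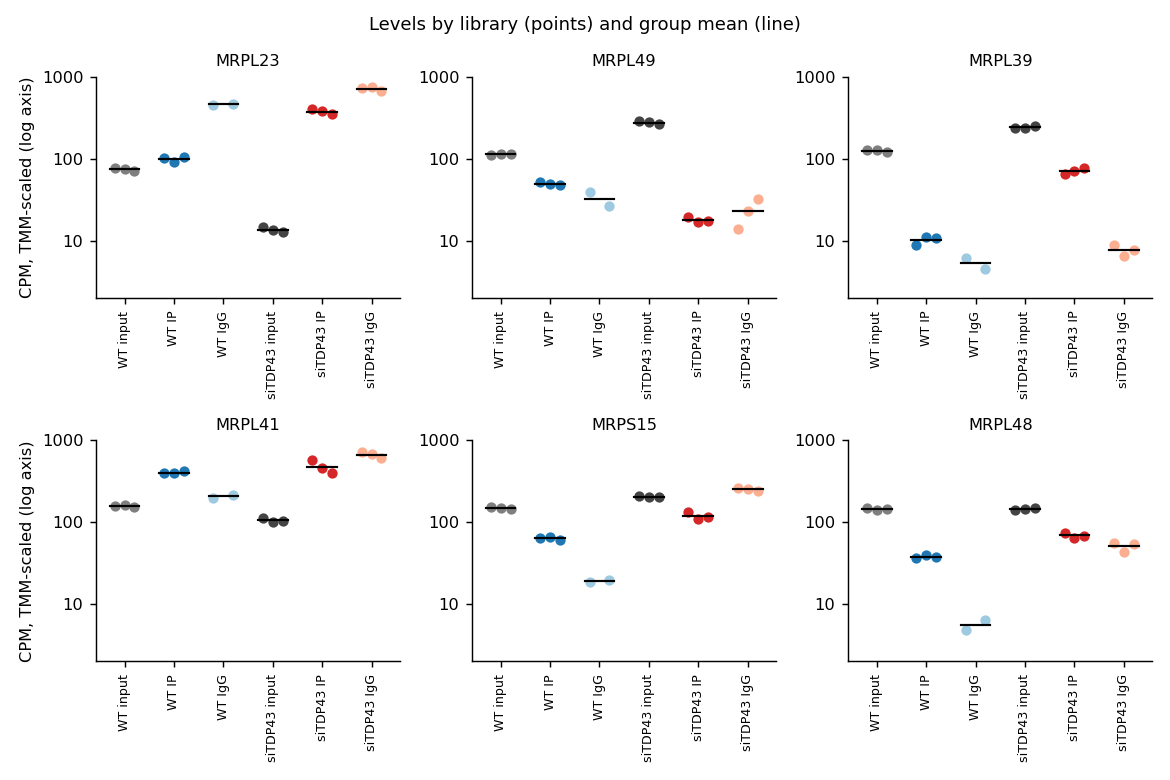
CPM of 6 members on a log axis, with one point per library and a line at each group mean. MRPL23 falls from WT input to siTDP43 input (means 74.9 and 13.8 CPM) and is highest in both IgG groups (464 and 724 CPM), while MRPL48 and MRPS15 are lowest in WT IgG (5.62 and 19.3 CPM).

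Against IgG the change was smaller and less uniform. The ratio of IP to IgG was higher in siTDP43 for 46 members and lower for 17, against 34.9% and 25.9% of all genes, with medians of 0.49 for the members and 0.24 for all genes. MRPL1 (3.17, SE 0.139, adjusted p 7.52e-21), MRPS28 (2.80), MRPS6 (2.71), MRPL47 (2.71) and MRPL39 (2.28) rose most. MRPS15, which binds the rRNA of the small subunit, fell most, by 2.82 on the log2 scale (SE 0.127, adjusted p 1.7e-20), followed by MRPL48 (-2.32), MRPS2 (-1.70), MRPL41 (-1.44, or 0.02 with a GC trend removed) and MRPL10 (-1.42). For MRPS15 the IP level was 65.2, 65.7 and 61.4 CPM in WT and 133, 110 and 116 CPM in siTDP43, and the IgG level was 18.8 and 19.8 CPM in WT and 266, 253 and 244 CPM in siTDP43. Both pull-downs were thus higher in siTDP43, and IgG by more. This contrast shares the IP libraries with the one against input.

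Against input and IgG together, 42 members were called higher both times and 1, MRPL49, lower both times. Another 18, MRPS15, MRPL48 and MRPL41 among them, were called in opposite directions, 13 against 1 control only and 2 against neither. The shares of all genes are not given for these counts. The members that rose against both controls by the most were, by the smaller of their changes, MRPL47, MRPS28, MRPL39, MRPS6, MRPL42, MRPS17, MRPL50 and MRPL23. MRPL47, which lies beside the tunnel exit, had 101, 100 and 105 CPM in WT input and 15.6, 19.5 and 22.3 CPM in WT IP, with 110 and 113 CPM in WT IgG. In siTDP43 it had 75.2, 81.7 and 87.8 CPM in input, 78.7, 74.5 and 71.8 CPM in IP and 85.9, 75.7 and 40.6 CPM in IgG. WT IP lay below every other group, and the 3 siTDP43 groups overlapped each other. MRPS28 had 28.6, 27.95 and 28.8 CPM in WT IP against 74.8, 75.9 and 76.8 CPM in WT input and 192 and 168 CPM in WT IgG. In siTDP43 its IP held 192, 179 and 170 CPM, above the input (109, 113 and 121 CPM) and overlapping IgG (160, 170 and 163 CPM). Its changes were 2.08 over input and 2.80 over IgG. The pairs of changes over input and over IgG were 1.86 and 2.28 for MRPL39, 1.86 and 2.71 for MRPS6, 1.81 and 1.54 for MRPL42, 1.58 and 1.38 for MRPS17, 2.25 and 1.29 for MRPL50, and 4.36 and 1.28 for MRPL23.

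The same difference was computed for the control pull-down, a comparison added after seeing the data. The ratio of IgG to input was higher in siTDP43 for 41 members and lower for 21, against 27.0% and 37.4% of all genes, with medians of 0.49 and -0.48. With a length trend removed 26 members were higher and 44 lower, and the member median turned to -0.52. MRPS15 (3.27), MRPL48 (3.20), MRPL23 (3.08), MRPS2 (2.65) and MRPL10 (2.39) rose most (MRPL23 became 1.88 with a GC trend and 1.41 with a length trend removed), and MRPL1 (-2.25), MRPL49 (-1.80), MRPL22 (-1.49), MRPS27 (-1.33) and MRPL16 (-1.27) fell most. The part of background binding in the changes of IP was not tested.

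MRPL12, which is known to bind the mitochondrial RNA polymerase (chromosome 17, 79670400 to 79674556), had 427, 438 and 429 CPM in WT input, 356, 337 and 366 CPM in WT IP and 402 and 420 CPM in WT IgG. In siTDP43 it had 318, 294 and 283 CPM in input, 552, 467 and 465 CPM in IP and 963, 778 and 885 CPM in IgG. Its input ratio was -0.53, which turned to 0.45 with a GC trend removed, and its changes were 1.02 over input and -0.60 over IgG. The last value turned to 0.63 with a GC trend removed and lost the call with a length trend removed (-0.076). MRPS12 of the decoding centre, whose gene shares its upstream region with SARS2 (chromosome 19, 39421348 to 39423659), rose from 96.2, 94.4 and 88.6 CPM in WT input to 180, 178 and 175 CPM in siTDP43 input (log2 ratio 0.94, SE 0.045, adjusted p 2.82e-18). Its changes were 0.9996 over input and 0.42 over IgG, and the second lost its call without WT IgG replicate 1 (0.24) and with DESeq2 size factors (0.20).

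The 3 paralogs of the bacterial protein S18 did not move alike. MRPS18A was higher in siTDP43 input (143 ± 2.16 CPM against 74.6 ± 3.98 CPM, SD, n = 3 each, log2 ratio 0.94), while MRPS18B (246 ± 3.33 against 247 ± 1.70 CPM) and MRPS18C (88.1 ± 10.4 against 92.6 ± 3.48 CPM) had overlapping groups and ratios of 0.00 and -0.07 that did not pass the test. In WT IP over input MRPS18C fell by 1.34 on the log2 scale (-0.68 and under the fold threshold with a GC trend removed, -0.93 with a length trend removed), and MRPS18A and MRPS18B had 0.04 and 0.06. The changes over input were -0.26 for MRPS18A, 0.78 for MRPS18B and 1.09 for MRPS18C. Differences between the paralogs were not tested.

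Members are short and differ widely in base composition. Median exon length was 1189 bases in the 75 members with a defined length, from 518 to 7827, against 3047 in all genes tested in WT, and median GC content was 50.4%, from 35.3 to 67.2%, against 49.6%. In WT IP over input Spearman's rho with GC content was 0.55 over the 75 members and 0.36 over all genes tested. The 38 members at or below the median GC had a median log2 ratio of -1.40 with 25 called lower, and the 37 above it had -0.43 with 13 called lower. In siTDP43 IP over input rho was 0.37 with GC content and -0.48 with exon length. For the change over input the lower-GC and higher-GC members had medians of 1.12 and 0.97, with 33 of 38 and 31 of 37 called higher. For this change rho over the members was -0.18 with GC content and -0.37 with exon length. The change over IgG had a median of 1.14 in the lower-GC members, with 26 called higher and 6 lower. In the higher-GC members it had 0.35, with 19 and 11, and its rho with GC content over the members was -0.46. Within a genotype, rho of IP over IgG with GC content was 0.20 in WT and -0.47 in siTDP43. Genes share libraries and base composition, so these coefficients describe the genes and carry no test, and the part of GC content and length in the ratios was not tested.

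**Figure D5:**
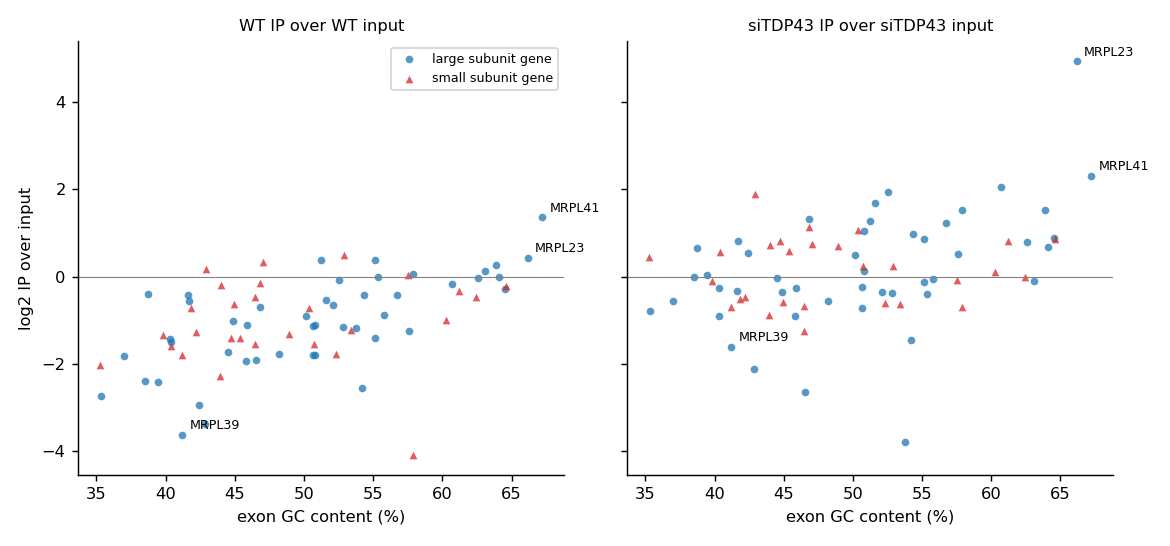
Each point is one member with a defined length (blue circles, large subunit; red triangles, small subunit), placed by exon GC content (%) and by its log2 ratio of IP over input in WT (left) and in siTDP43 (right). In WT the ratios rise with GC content (rho 0.55), with MRPS24 (few counts) and MRPL39 lowest and MRPL41 highest, and in siTDP43 the relation is weaker (rho 0.37) and MRPL23 stands apart.

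The letters TGTGTG, a DNA spelling of the UG repeat that TDP43 is known to bind, occurred in the exons of 25 of the 76 members (32.9%) and of 13478 of 23346 genes (57.7%). Members with the letters were longer, with a median of 1749 bases against 1122 for those without. The median change of IP over input was 1.02 for the 25 members with the letters and 1.08 for the 51 without, and in the inputs the medians were 0.40 and 0.18. Over all genes tested the median change was -0.32 with the letters and 0.12 without, and in the inputs the medians were 0.01 and -0.15. The stretches shown are those of the members with most matches (MRPL42 with 10 and MRPS25 with 6) and, among the 7 members with at least 3, of the longest run (MRPL28), each cut to 30 bases on the strand of the gene, hg19, with the repeat in capitals. MRPL42 (chr12:93895460-93895489, plus strand) and MRPL28 (chr16:417384-417413, minus strand) lie in the 3′ UTR, and MRPS25 (chr3:15090173-15090202, minus strand) in the UTR of some transcripts. The change of IP over input was higher for all 3, by 1.81 for MRPL42, 0.26 for MRPS25 and 0.67 for MRPL28, as it was for most members with and without the letters.
MRPL42: aacatctcttttTGTGTGtctactgtgatt
MRPS25: agcacttgagtTGTGTGTGgcagcagcatt
MRPL28: gtaaagtctgggccaggcTGTGTGTGTGta

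Other genes of mitochondrial translation were described from lists. Of all genes tested, 38.6% rose and 40.6% fell in the input. The change of IP over input was higher for 31.5% of all genes and lower for 36.3%. These shares apply to each list here and in the next paragraph. Of 7 mitoribosomal proteins with other symbols, 3 rose and 3 fell in the input, led by GADD45GIP1 (-2.48) and PTCD3 (1.12), and 6 had a higher change of IP over input, led by GADD45GIP1 (4.22) and CHCHD1 (1.99). Of 16 mitochondrial translation factors, 11 rose in the input and 1 fell, led by the elongation factors GFM1 (1.86) and GFM2 (1.36), and the change over input was higher for 8 and lower for 3, led by the recycling factor MRRF (1.98) and by SLIRP (1.76). Of 25 mitoribosome assembly factors, 20 rose in the input and 3 fell, led by the pseudouridine synthase TRUB2 (2.08) and the helicase DDX28 (1.59), and the change over input was higher for 10 and lower for 5, led by the rRNA methyltransferase TFB1M (2.52) and the GTPase GTPBP10 (1.70). Median changes over input were 0.42 for the factors and 0.13 for assembly, against 1.05 for the members.

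The cytosolic ribosomal protein genes, which build the other ribosome of the cell, differed from the members in the inputs: 7 rose and 65 fell of 78 tested, with a median of -0.77. Nuclear oxidative phosphorylation genes rose in 25 and fell in 44 of 85, with a median of -0.17. In the change of IP over input both lists moved in the direction of the members, with 75 of 79 cytosolic ribosomal genes (median 2.21) and 77 of 86 oxidative phosphorylation genes (median 1.40) higher. The change of IgG over input was higher for 73 of 79 and 67 of 86 (medians 1.98 and 1.40), against 27.0% of all genes. For IP over IgG, 35 cytosolic ribosomal genes were higher and 20 lower (median 0.15). Of the oxidative phosphorylation genes 38 were higher and 28 lower (median 0.09), against 34.9% and 25.9% of all genes. A higher ratio of IP to input was thus also seen in these lists, with a higher ratio of IgG to input beside it. No test of the difference between lists was made.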

How the data were processed

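HEK293T poly(A) RNA was sequenced after Smart-seq2 library preparation. Per the labels and methods, the authors trimmed reads with Trim Galore (0.6.7), aligned them to hg19 with STAR (2.7.10a) and counted unique alignments per gene with featureCounts (2.0.2). The labels list only a mouse build, but the table holds human symbols. The annotation release, strand setting and handling of read pairs are not given in the sources used here. The deposited values are raw counts per gene, from 3013989 to 36583436 per library. Even numbers made up 81.3 to 95.9% of the counts from 1 to 20, and the libraries carry no molecular identifiers, so counting error is understated.

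Groups came from the labels. Counts were tested with edgeR (4.0.16, R 4.3.3, TMM scaling, quasi-likelihood test, filterByExpr with a minimum count of 10) in separate fits for the inputs, the WT libraries and the siTDP43 libraries, and over all 17 libraries for the changes between genotypes. The Benjamini-Hochberg adjustment ran over all genes tested. The threshold was an adjusted p of 0.05, with a fold above 2 for enrichments. Replicates differed by more than the sampling noise of independent counts (chi-square per degree of freedom 3.23 to 9.17) and were kept as separate samples. Doubled or copied counts also raise this measure, so it cannot show that replicates came from separate cultures. Same-numbered libraries did not deviate together (40 pairs, r from -0.03 to 0.07), so replicate numbers were not used as pairs. The alternatives were other scalings, the DESeq2 Wald test (1.42.0), filters, removal of a GC or length trend and the replicate block. The others were no minimum fold, 1 fit of all 17 libraries and leaving out each library.

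The members and lists were chosen with earlier results of these data known. Named genes were TARDBP, in each comparison the 5 called members that rose most and the 5 that fell most (mean of at least 100 counts, no overlap between groups), the 8 members with the largest smaller change against both controls, MRPL12, MRPS12 and the MRPS18 paralogs, and the leading 2 genes of other lists. The rule covers 9 comparisons, and the change of IgG over input was added later. MRPL24, MRPL4, MRPS25 and the other members passing without a minimum fold, and the members with sequences or levels shown, were chosen after their values were seen.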

Additional observations from a re-analysis of the deposited data

Results flagged for a closer look

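Each value here is a change of a log2 ratio between genotypes, siTDP43 minus WT, for which the difference itself passed the edgeR interaction test over all 17 libraries. The lists are not complete: they hold only members that the rule given above named for the comparison. MRPL4, lower over input, is among those left out. The counts of all members that passed are given above with the shares of all genes. No explanation was weighed.

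For IP over input the higher changes were MRPL23 (4.36), MRPL13 (3.34), MRPS36 (2.32), MRPL47 (2.30), MRPL50 (2.25), MRPS28 (2.08), MRPL39 (1.86), MRPS6 (1.86), MRPL42 (1.81), MRPS17 (1.58), MRPS18C (1.09), MRPL12 (1.02), MRPS12 (0.9996) and MRPS18B (0.78). The lower ones were MRPL49 (-2.75), MRPS27 (-0.92), MRPL45 (-0.87), MRPL2 (-0.55), MRPS5 (-0.40) and MRPS18A (-0.26). With a GC trend removed MRPS5 turned to 0.033 and MRPS18A to 0.25.

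For IP over IgG the higher changes were MRPL1 (3.17), MRPS28 (2.80), MRPS6 (2.71), MRPL47 (2.71), MRPL39 (2.28), MRPL42 (1.54), MRPS17 (1.38), MRPL50 (1.29), MRPL23 (1.28), MRPS18A (0.99), MRPS18B (0.67) and MRPS12 (0.42). The lower ones were MRPS15 (-2.82), MRPL48 (-2.32), MRPS2 (-1.70), MRPL41 (-1.44), MRPL10 (-1.42) and MRPL12 (-0.60). With a GC trend removed MRPL41 turned to 0.020 and MRPL12 to 0.63.

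For IgG over input the higher changes were MRPS15 (3.27), MRPL48 (3.20), MRPL23 (3.08), MRPS2 (2.65), MRPL10 (2.39), MRPL12 (1.62), MRPS18C (0.91) and MRPS12 (0.58). With a length trend removed MRPS18C turned to -0.22 and MRPS12 to -0.33. The lower ones were MRPL1 (-2.25), MRPL49 (-1.80), MRPL22 (-1.49), MRPS27 (-1.33), MRPL16 (-1.27) and MRPS18A (-1.25).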

How the results depend on the processing

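Over 25 alternatives the change of IP over input was higher for 51 to 67 members and the change of IP over IgG for 38 to 55, and over 15 alternatives 42 to 60 members were higher in the input. With scaling by total count, siTDP43 IP over input gave 8 higher and 13 lower, IP over IgG 10 and 2, and IgG over input 12 higher, 1 member was ac4C(+) in WT, and MRPS18B turned to -0.087 in the input and -0.21 in the change of IgG over input. With a GC trend removed, WT IP over input gave 0 higher, WT IP over IgG 3 higher and 39 lower, WT IgG over input 16 lower, siTDP43 IP over IgG 2 and 20, siTDP43 IgG over input 6 lower and the change of IP over input 3 lower. The same removal turned MRPL41 to 0.71 and MRPL12 to 0.45 in the input, MRPL41 to -0.88 in WT and -0.12 in siTDP43 IP over input, MRPS5 to 0.033 and MRPS18A to 0.25 in the change over input, and MRPL41, MRPL12 and MRPS18C to 0.020, 0.63 and -0.59 in the change over IgG. With a length trend removed, the input gave 11 lower, WT IP over IgG 3 and 40, WT IgG over input 26 and 13, siTDP43 IP over input 4 and 12, siTDP43 IP over IgG 11 lower, the change of IP over input 14 lower and the change of IgG over input 26 and 44. It turned MRPL41 to 0.0051 and MRPS18C to 0.26 in the input, and MRPS12 to -0.33 and MRPS18C to -0.22 in the change of IgG over input. Without a minimum fold, WT IP over input gave 8 and 60, WT IP over IgG 15 and 52, WT IgG over input 26 higher, siTDP43 IP over input 36 and 28, IP over IgG 21 and 33 and IgG over input 43 and 25, and 3 and 7 members were ac4C(+), as follows from a looser threshold. The cause of the other moves was not tested. Leaving out 1 library each gave 0 to 1 ac4C(+) members in WT. MRPS35 lost its call over siTDP43 IgG without siTDP43 IgG replicate 3 (0.99). Of the single-gene values under alternatives, 3032 kept their side of the threshold, 47 lost and 37 gained a call and 15 turned. A value called neither in the main fit nor in the alternative was not counted as turned when its sign changed.

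The pairing of replicate numbers was not borne out. The fit with the replicate block gave 44 higher and 20 lower in the input, 65 and 7 for the change of IP over input, 46 and 17 for IP over IgG, 40 and 21 for IgG over input, and 0 ac4C(+) members in both genotypes. In WT it gave 1 and 39 for IP over input, 5 and 21 for IP over IgG and 10 and 27 for IgG over input, and in siTDP43 14 and 6, 6 and 4, and 22 and 16. Depth limited siTDP43 IgG most, where MRPL39 held 16 to 24 counts and MRPL49 38 to 90.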
